A study of Nothobranchius furzeri with 24 samples.

Results

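The most consistently sex-biased genes of the wild killifish brain were 60 of the 17654 genes with a mean of 1 RPM or more over 24 fish, from a table of 26739 genes, where RPM is reads of a gene per 1000000 reads on genes. For each gene the difference D was taken at each age as the female median minus the male median of log2(RPM + 0.5), over 4 fish of each sex. The female-biased set held the 30 genes whose lowest of the 3 differences was the largest, and the male-biased set the 30 genes whose highest of the 3 differences was the lowest. That limiting difference, the value of D at the age where a gene's bias was weakest, is therefore what the genes were chosen by. The differences between the sexes are given below as a description, with no test of a single member.

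The study collected whole brains of wild turquoise killifish, Nothobranchius furzeri, from natural ponds, and the labels give the strain as MZM_A41 for all 24 fish. Females and males were taken at 39, 73 and 108 days post hatch (dph), 4 fish in each of the 6 groups, with no treatment and no captive animals among them. Each library of poly(A) RNA came from 1 fish, so the spread within a group is a spread between wild animals of differing genotype. Each age stands for a separate catch in the season, and what belongs to the catch cannot be told apart from what belongs to age.

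Sex in this species is set by an XY system, and a Y-linked allele of gdf6, a growth factor gene of the TGF-beta family, is known as its determining locus. In the fish brain the best known link between sex and gene expression is aromatase, the enzyme encoded by CYP19A1 that converts androgens to estrogens. Teleosts are known for a very high aromatase level in the brain, made mainly by radial glia, the stem-like cells that line the ventricles. In most vertebrates studied, few brain genes differ between the sexes as clearly as genes of the gonads do.

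Reads on genes had a median of 17954316 per library, from 14219725 to 19346170 in 22 fish, with 4595506 in 39 dph female replicate 4 and 10019750 in 39 dph male replicate 4. The tissue markers were present in every fish, and the summed level of 20 neuron and myelin genes lay between 10142 and 15648 RPM over the 24 brains. A gene symbol was known for 14 of the 60 members, against 41% of the 17654 genes, and these symbols come from annotation columns of the study's own tables, which list genes that the study chose partly on these fish. The other 46 members are given by their locus identifiers and no function is named for them. Because whole brains were measured, fewer cells of a type and less RNA per cell cannot be told apart.

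The female-biased set had the larger differences. Its limiting difference ran from 0.48 to 2.02 on the log2 scale with a median of 0.57, so at the weakest age the median member was 1.49-fold higher in females, and 5 members passed 1. In the male-biased set the limiting difference ran from -2.44 to -0.36 with a median of -0.43, which is 1.35-fold higher in males, and 2 members passed 1 in size. A difference of 1 sign at all 3 ages was found in many genes: 2315 of the 17654 (13.1%) had females higher throughout and 2902 (16.4%) had males higher throughout. Signs that fall at random also agree at 3 ages in part of all genes, so these shares are no measure of sex bias. The edgeR model of sex and age called 0.0465% of 19358 genes higher and 0.00517% lower in females. The 60 genes were the extremes of those with 1 sign throughout, by the size of the weakest difference.

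**Figure D1:**
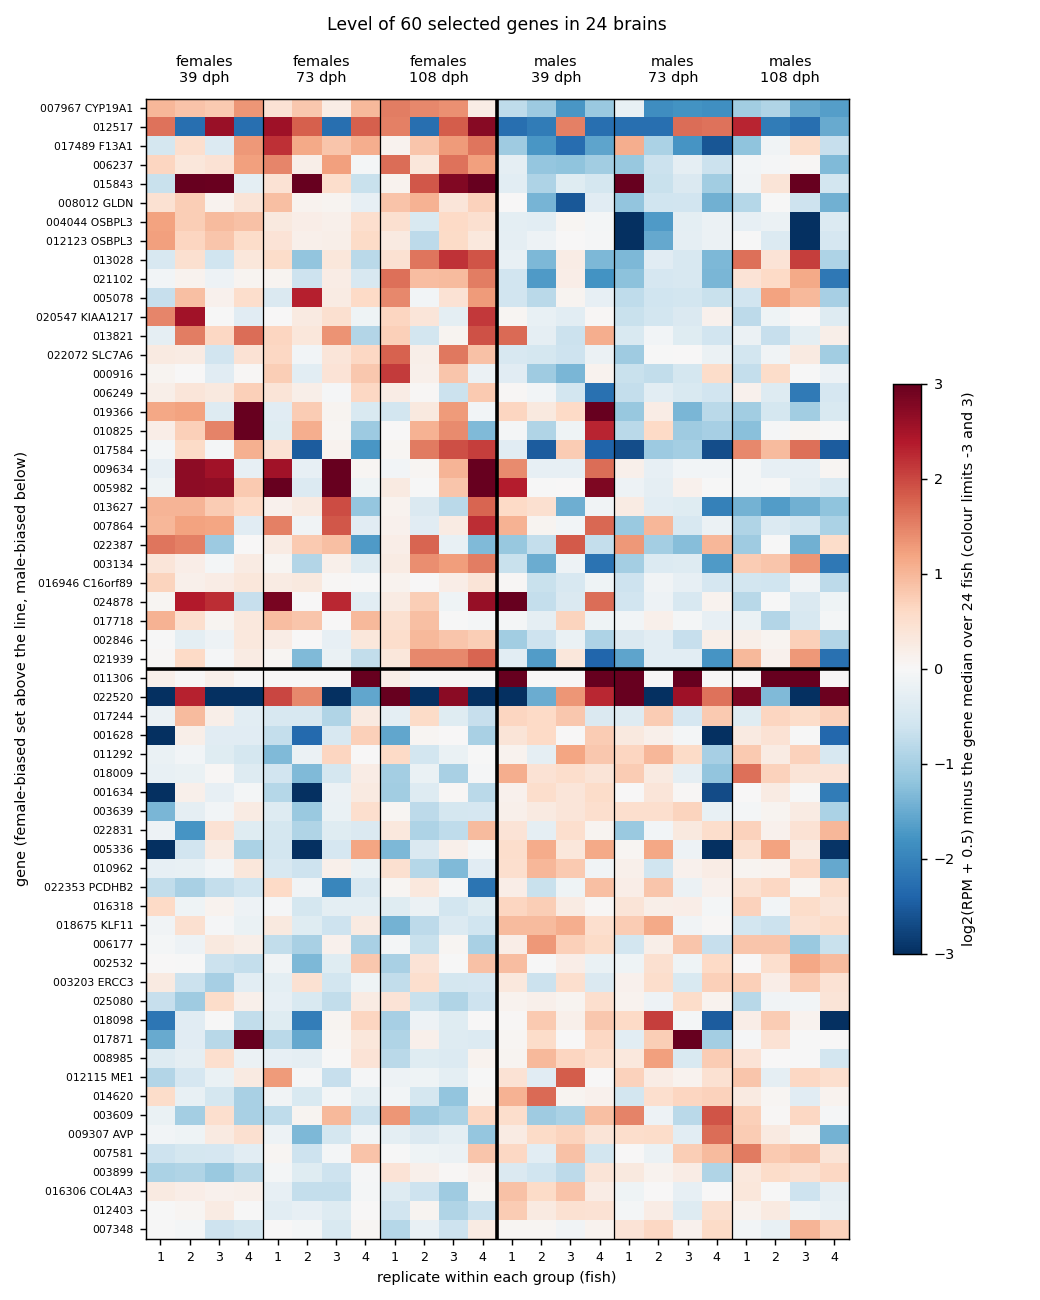
Each row is 1 of the 60 genes, labelled by the last 6 digits of its identifier and its symbol where known, and each column is 1 fish, females on the left and males on the right, by age, 4 fish each. Colour gives log2(RPM + 0.5) minus the gene's median over the 24 fish. CYP19A1, in the top row, is the only gene in which all 12 females lie above all 12 males, and in most other rows fish of both sexes share colours.

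The members were variable genes at low levels. A rule on the extremes of differences between medians of 4 fish favours genes with a wide spread. The values are therefore a description of the choice and not a finding on sex bias. The median within-group SD on the log2 scale was 0.86 in the female-biased set and 0.59 in the male-biased set, against 0.21 over all 17654 genes, and all 30 members of each set lay above that overall median. The median of the mean RPM was 4.03 in the female-biased set and 6.22 in the male-biased set, against 20.8 over all genes. Per length of transcript the same order held, with medians of 1.27 RPKM, 3.34 RPKM and 8.16 RPKM. Of the female-biased members 6, and of the male-biased 1, had 0 reads in at least 1 fish, and 21 and 16 members fell under 1 RPM in at least 1 fish.

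Few members kept the sexes fully apart. Over all 24 fish the females lay above every male in 1 of the 30 female-biased members, CYP19A1, which was the only such gene among the 17654 (0.00566%), and the males lay above every female in 0 of the 30 male-biased members (0% of all genes). With each age taken alone, the sexes did not overlap at any of the 3 ages in 4 female-biased members, namely CYP19A1, Nfu_g_1_006237, GLDN and C16orf89, which were the only such genes of all (0.0227%), and in 0 male-biased members (0%). Both OSBPL3 genes and Nfu_g_1_006249 among the female-biased and Nfu_g_1_018009 among the male-biased did so at 2 ages, while in 17 female-biased and 22 male-biased members the sexes overlapped at every age. The rule used this contrast, so nothing is read from these counts.

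CYP19A1 (Nfu_g_1_007967) led the female-biased set. At 39 dph the 4 females had 210.0, 189.7, 180.4 and 264 RPM and the males 61.9, 49.5, 31.1 and 48.0 RPM. At 73 dph the females had 141, 186, 123 and 207 RPM and the males 89.5, 28.7, 29.9 and 28.8 RPM, and at 108 dph the females had 307, 287, 274 and 124 RPM and the males 50.6, 55.7, 36.2 and 33.0 RPM. The lowest female, 73 dph female replicate 3 with 123 RPM, was thus still above the highest male, 73 dph male replicate 1 with 89.5 RPM. In means, the sexes stood at 211 ± 37.5 against 47.6 ± 12.7 RPM (SD, n = 4) at 39 dph, 164 ± 38.7 against 44.2 ± 30.2 at 73 dph and 248 ± 83.9 against 43.9 ± 11 at 108 dph. With a mean of 84.3 RPKM it was also the member with the highest level per length.

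Aromatase was the only steroid gene among the members, and its level is not paired here with a gene copy. The annotation gives the symbol CYP19A1 also to Nfu_g_1_016264, which was low in both sexes, with a median of 0.425 RPM in females and 0.776 RPM in males, and RefSeq's assembly NfurGRZ-RIMD1 lists a cyp19a1a and a cyp19a1b. Which of these Nfu_g_1_007967 is was not given in the sources used here. Between ages the level of CYP19A1 was not called different in either step: 108 versus 39 dph gave a log2 fold change of 0.04 ± 0.23 (SE) with an edgeR adjusted p of 0.91, and 73 versus 39 dph gave -0.25 ± 0.23 with an adjusted p of 0.48. These age contrasts, fitted over both sexes, were not used in choosing the genes, except that the filter on mean RPM took in all ages.

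GLDN (Nfu_g_1_008012), which encodes gliomedin, a secreted and membrane protein known in mammals for clustering sodium channels at nodes of Ranvier of peripheral axons, was a second gene with no overlap at any age. The 4 females had 11.2, 13.7, 8.64 and 10.7 RPM at 39 dph against 8.09, 2.70, 0.964 and 6.19 RPM in the males. At 73 dph the females had 15.3, 8.61, 8.40 and 6.63 RPM against 3.21, 5.11, 5.18 and 2.62 RPM, and at 108 dph 14.9, 16.9, 10.5 and 13.2 RPM against 4.22, 7.86, 5.01 and 2.60 RPM. At each age the lowest female exceeded the highest male. Over all ages, 39 dph male replicate 1 and 108 dph male replicate 2 lay above 73 dph female replicate 4. In RefSeq's assembly gldn is the direct neighbour of cyp19a1a, while cyp19a1b lies elsewhere. The levels of GLDN and CYP19A1 did not follow each other from fish to fish: the correlation of their deviations from the group medians was 0.20 (Pearson's r, n = 24 fish, as a description).

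Nfu_g_1_006237, which has no symbol here, stood apart between the sexes in the same way at a lower level. The females ranged from 2.90 to 10.7 RPM with a median of 6.37, and the males from 0.903 to 3.10 RPM with a median of 1.75. Of the 12 females 11 were above every male. C16orf89 (Nfu_g_1_016946), a gene of little known function, gave the steadiest difference of the set with a within-group SD of 0.24 on the log2 scale. Its females lay between 56.2 and 90.1 RPM with a median of 65.6, and its males between 32.6 and 57.6 RPM with a median of 39.7, the highest male being 39 dph male replicate 1. By its limiting difference of 0.52 it ranked only at place 26 of 30.

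**Figure D2:**
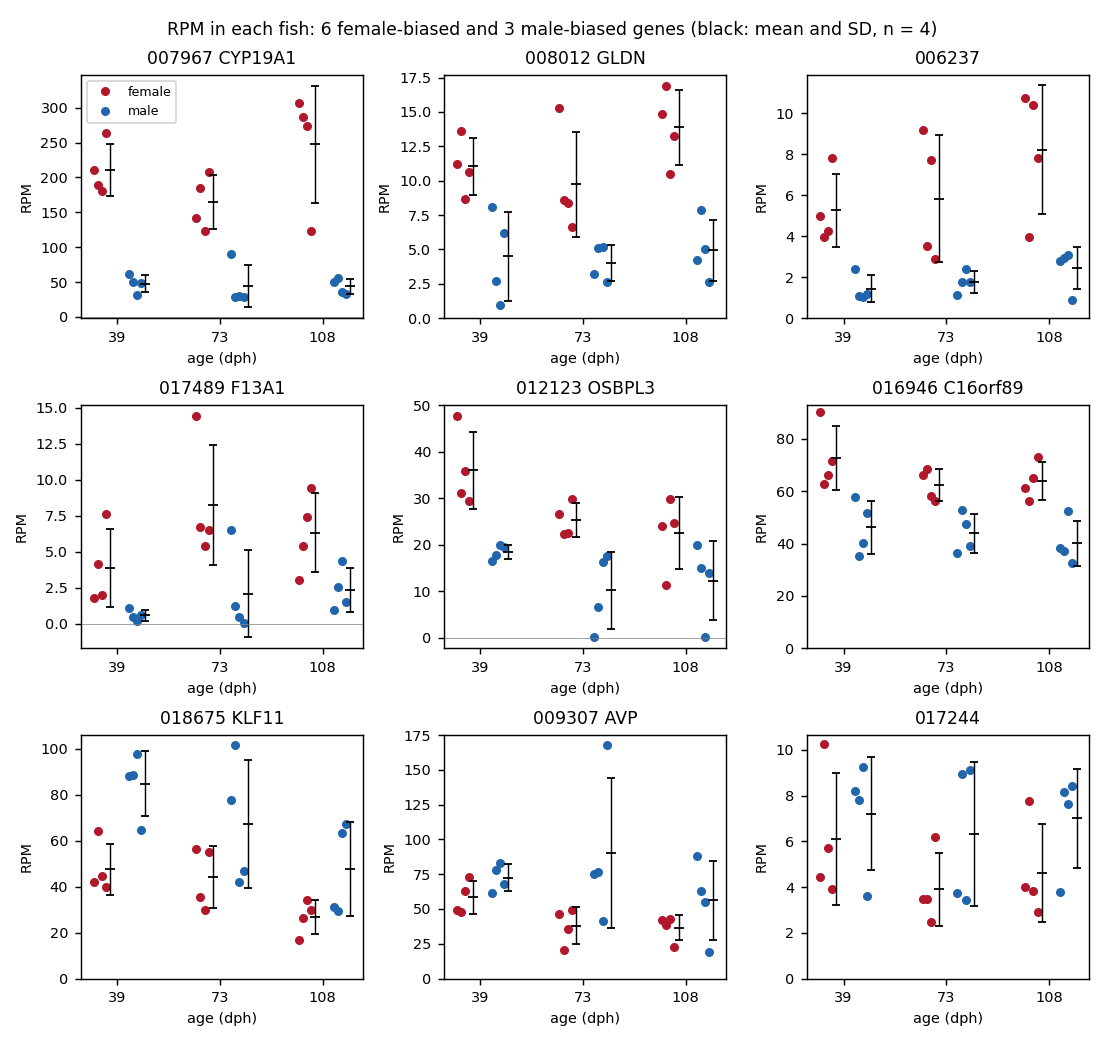
Each panel shows RPM against age in dph for 1 gene, with every fish as a point, females red and males blue, and the mean with its SD (n = 4) in black. In CYP19A1 all females lie at 123 RPM or more and all males at 89.5 RPM or less, whereas in AVP and Nfu_g_1_017244 both sexes cover much of the same range.

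F13A1 (Nfu_g_1_017489, named in the annotation as the second of 2 copies) encodes the A subunit of coagulation factor XIII, which in mammals is also a marker of macrophages at tissue borders. At 39 dph its females had 1.76, 4.17, 1.96 and 7.62 RPM and its males 1.07, 0.486, 0.170 and 0.599 RPM. Females of 73 dph had 14.4, 6.69, 5.36 and 6.52 RPM and males 6.53, 1.21, 0.471 and 0.0546 RPM, and at 108 dph the values were 3.02, 5.38, 7.42 and 9.46 RPM against 0.914, 2.56, 4.34 and 1.52 RPM. The sexes overlapped at 73 and 108 dph through 73 dph male replicate 1 and 108 dph male replicate 3. The immune and blood markers measured beside it, CD74, SLC4A1 and both genes annotated ALAS2, included 0 of 4 called for sex, and 0 of these 4 had an unadjusted p under 0.05. Only 3 of the 12 symbols of that list had an identifier, and CSF1R, MPEG1, PTPRC and LYZ had none. Nothing is therefore read from these 4 genes on macrophages.

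Both genes annotated OSBPL3, Nfu_g_1_004044 and Nfu_g_1_012123, were members, and OSBPL3 encodes an oxysterol-binding protein that carries lipids between membranes. Both are named in the annotation as the first of 2 copies, so it does not tell them apart. They moved almost as a unit, with a correlation of 0.995 between their deviations (n = 24 fish). Whether they are separate genes was not tested. How reads are shared between them depends on the counting, so each level is uncertain. For Nfu_g_1_012123 the females had 47.8, 31.2, 35.9 and 29.4 RPM at 39 dph against 16.5, 17.8, 20.0 and 19.6 RPM in the males. At 73 dph the values were 26.7, 22.3, 22.6 and 29.9 against 0.105, 6.59, 16.4 and 17.7 RPM, and at 108 dph 24.1, 11.4, 29.8 and 24.8 against 19.9, 15.0, 0.103 and 14.0 RPM. The pair was nearly silent in 2 males, 73 dph male replicate 1 and 108 dph male replicate 3, at 0.0527 to 0.105 RPM in both genes, while the other males of those ages reached up to 19.9 RPM. In both genes 11 of the 12 females were above every male, the exception being 108 dph female replicate 2.

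A pair of further members among the 10 with the largest limiting difference were present in some fish and nearly absent in others of the same sex. Nfu_g_1_012517 was above 5 RPM in 8 of 12 females, at 6.29 to 15.3 RPM, and in 4 of 12 males, at 6.35 to 11.1 RPM, and was at 0 RPM in the other 4 females and at 0 to 0.339 RPM in the other 8 males. Its large limiting difference of 1.87 thus followed the number of fish of each sex above 5 RPM, and among those fish the levels of the sexes overlapped. Without 39 dph female replicate 1 or 3 that difference was -0.074. Nfu_g_1_015843 was above 5 RPM in 5 females, at 7.35 to 14.1 RPM, and in 2 males, at 10.0 and 10.5 RPM, while the other fish lay between 0.0546 and 3.66 RPM.

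The remaining annotated members of the female-biased set were KIAA1217 and SLC7A6. KIAA1217 (Nfu_g_1_020547) ranged from 0.653 to 7.95 RPM in females, median 1.32, and from 0.352 to 1.09 RPM in males, median 0.718, and 7 of the 12 females were above every male. SLC7A6 (Nfu_g_1_022072), a transporter of cationic and neutral amino acids, ranged from 6.84 to 37.0 RPM in females, median 14.0, and from 4.74 to 12.7 RPM in males, median 8.26, with 8 females above every male and the largest difference at 108 dph (D of 1.56). The other female-biased members without a symbol had limiting differences between 0.48 and 0.67, and the set's last member, Nfu_g_1_021939, had 0.4806. The first genes outside it were Nfu_g_1_016781 (SYBU) with 0.4801, Nfu_g_1_016757 with 0.48 and Nfu_g_1_007569 with 0.47.

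SYBU, which encodes syntabulin, a linker of cargo vesicles to kinesin motors in axons, missed the set by a difference in the fourth decimal and was far better measured than most members, with 349 to 673 RPM in females (median 436) and 187 to 411 RPM in males (median 272). It is the direct neighbour of gdf6a in RefSeq's assembly. In the model of sex and age over all genes, females were higher in SYBU by a log2 fold change of 0.72 ± 0.12 (SE) with an edgeR adjusted p of 0.012. The call was kept without each fish in turn (0.66 to 0.77). As the first gene outside the set, SYBU was ranked on this same contrast in the same fish. The study had also called it for sex, so nothing is read from this p-value. Of the 12 females 8 were above every male, and 11 of the 12 males were below every female.

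**Figure D3:**
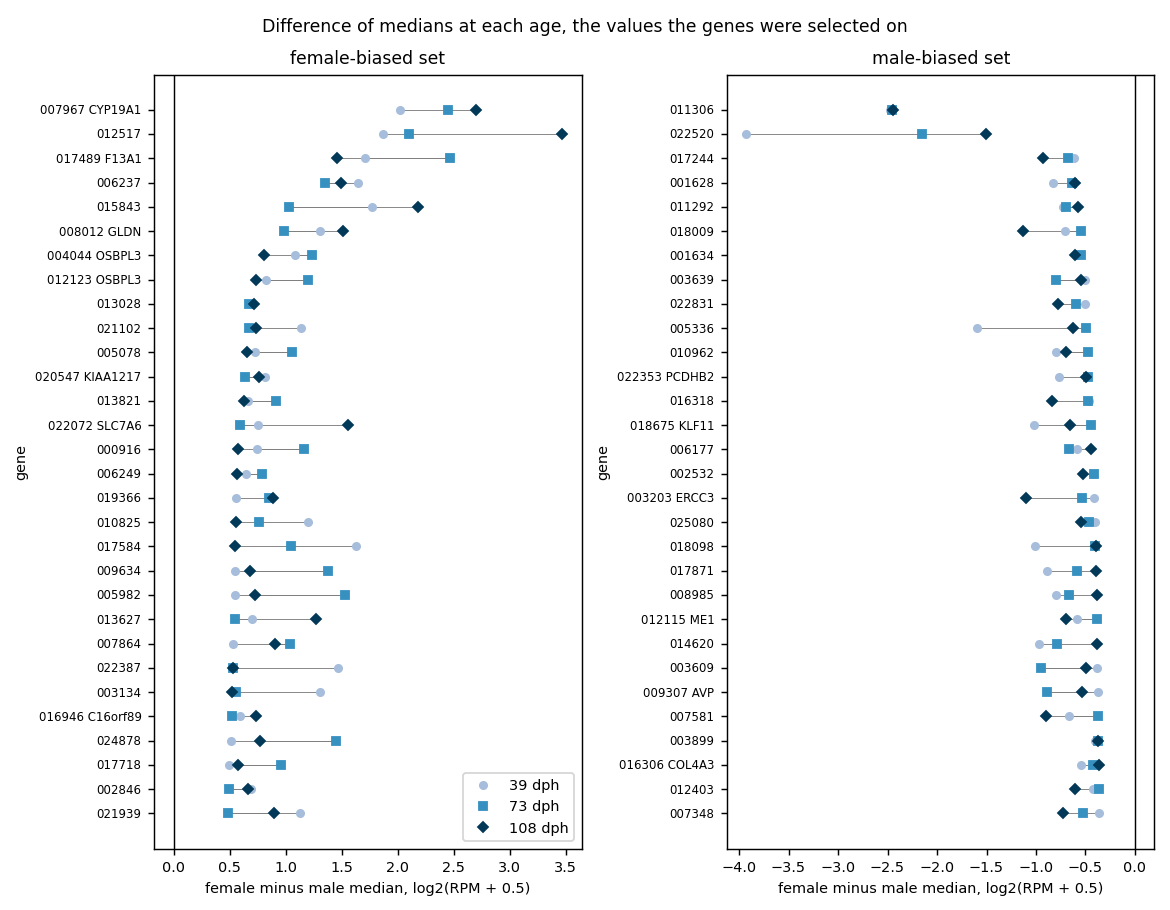
Each row is a gene of the female-biased set (left) or the male-biased set (right), and the symbols give its difference D, female minus male median of log2(RPM + 0.5), at 39, 73 and 108 dph. The genes were selected on these values, so all lie on 1 side of 0. The limiting difference falls quickly from 2.02 to below 0.6 in the female-biased set, and after the first 2 genes all male-biased members lie between -0.62 and -0.36.

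The male-biased set opened with 2 genes of the same on-and-off kind. Nfu_g_1_011306 had 14.3 to 18.3 RPM in 6 of 12 males, 2 at each age, and 0 RPM in the other 6. Among the females 1 fish, 73 dph female replicate 4, had 15.8 RPM and the other 11 had at most 0.0617 RPM, which is 1 read. Because exactly 2 of the 4 males were on at each age, its male median fell midway between on and off, and its limiting difference of -2.44 rests on that count. Without any 1 of the 6 males it was 0 or 0.0767. Nfu_g_1_022520 was above 50 RPM in 7 males, at 66.0 to 233 RPM, and in 5 females, at 72.0 to 299.8 RPM, the highest value being a female's, and the remaining fish of both sexes lay between 0.284 and 10.2 RPM. Its limiting difference of -1.50 turned to 1.96 without 108 dph female replicate 2 or 4 and to 0.57 without 108 dph male replicate 1 or 4.

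Behind these, the male-biased members differed by small amounts. Nfu_g_1_017244 stood at 4.44, 10.3, 5.72 and 3.92 RPM in the 39 dph females against 8.2, 7.82, 9.24 and 3.59 RPM in the males, so the highest fish was a female. At 73 dph its values were 3.49, 3.46, 2.49 and 6.18 against 3.74, 8.95, 3.41 and 9.12 RPM, and at 108 dph 4.01, 7.77, 3.81 and 2.92 against 3.80, 8.13, 7.65 and 8.41 RPM. Nfu_g_1_018009 came closest to keeping the sexes apart: 10 of the 12 males were above every female, the males at 0.164 to 4.29 RPM (median 1.54) and the females at 0.110 to 1.28 RPM (median 0.725), and the exceptions were 73 dph male replicates 3 and 4. Nfu_g_1_011292 had 6 males above every female, with a median of 6.36 RPM in males and 3.43 RPM in females. Nfu_g_1_022831 ranged from 2.63 to 13.0 RPM in males (median 8.2) and from 1.48 to 12.6 RPM in females (median 4.66), with a limiting difference of -0.50.

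AVP (Nfu_g_1_009307), the precursor of the vasopressin family hormone called vasotocin in fish, which is made in neurons of the preoptic area and is known for its role in social and reproductive behaviour, was a male-biased member. At 39 dph the females had 49.4, 47.6, 63.2 and 72.7 RPM and the males 61.3, 77.8, 82.7 and 68.2 RPM. Females of 73 dph had 46.7, 20.3, 35.8 and 49.3 RPM against 75.3, 76.9, 41.5 and 168 RPM in males, and at 108 dph the values were 42.3, 38.7, 42.6 and 23.0 against 87.9, 63.2, 54.7 and 19.2 RPM. Of the 12 males 6 were above every female, but the fish with the lowest level of all, 108 dph male replicate 4, was also a male. Of the other hormone genes measured, LHB, PRL, PCSK1, TAC1, SST and NPY, 0 of 6 were called for sex, and 0 of these 6 had an unadjusted p under 0.05. Since 10 of all 19358 genes tested were called for sex, nothing is read from 0 of 6. PRL, a hormone of the pituitary, ranged from 2.16 to 4233 RPM in females and from 1.87 to 4312 RPM in males, and the part of pituitary tissue in the level of AVP was not tested.

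KLF11 (Nfu_g_1_018675, klf11a in the annotation), a zinc-finger transcription factor induced by TGF-beta signalling, was among the better measured male-biased members. The females had 42.1, 64.0, 44.6 and 39.8 RPM at 39 dph and the males 88.3, 88.6, 97.9 and 64.6 RPM, so the sexes did not overlap there. At 73 dph the values were 56.4, 35.6, 29.8 and 55.0 against 77.8, 102, 42.2 and 46.9 RPM, and at 108 dph 16.9, 26.1, 34.4 and 29.9 against 31.1, 29.2, 63.5 and 67.2 RPM, with overlap at both ages. ERCC3 (Nfu_g_1_003203), a DNA helicase of the transcription factor TFIIH that acts in nucleotide excision repair, ranged from 57.1 to 162 RPM in females (median 86.2) and from 72.8 to 196 RPM in males (median 149), and overlapped at each age.

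The other male-biased members with symbols were at low levels. PCDHB2 (Nfu_g_1_022353), a protocadherin annotation from a family of many similar copies and so of uncertain counts, ranged from 0.162 to 4.08 RPM in females and from 1.40 to 5.19 RPM in males. ME1 (Nfu_g_1_012115), the cytosolic malic enzyme that supplies NADPH, ranged from 0.512 to 4.02 RPM in females and from 0.971 to 6.13 RPM in males. COL4A3 (Nfu_g_1_016306), a basement membrane collagen chain, lay between 0.277 and 1.48 RPM in females and between 0.569 and 2.52 RPM in males. All 3 overlapped at each age. The last member of the set, Nfu_g_1_007348, had a limiting difference of -0.360, and the first genes outside it, Nfu_g_1_009022, Nfu_g_1_019986 and Nfu_g_1_018663, had -0.358, -0.357 and -0.347.

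To compare a bias found at some ages with that at another, the 30 genes of each set were chosen anew by their differences at 2 ages and read at the third. This is a description: the fish of the third age still counted in the filter on mean RPM, and 5 to 15 of the 30 genes chosen in each case were members, whose difference at the third age the rule had used. Chosen on 73 and 108 dph, 14 of 30 female-biased genes were also higher in females at 39 dph, where 43.7% of all 17654 genes were. Chosen on 39 and 108 dph, 23 of 30 were higher in females at 73 dph (47.8% of all genes), and chosen on 39 and 73 dph, 16 of 30 were at 108 dph (51.8% of all genes). For the male-biased choice the counts were 21 of 30 at 39 dph, where 56.3% of all genes were higher in males, 8 of 30 at 73 dph (52.2%) and 22 of 30 at 108 dph (48.2%). The count that kept its direction thus ran from 14 to 23 of 30 for the female-biased and from 8 to 22 of 30 for the male-biased choice, and their median difference was turned against the choice at 39 dph for females (-0.09) and at 73 dph for males (0.69). The male-biased choice read at 73 dph held the hormone genes PRL and LHB, with D of 4.66 and 4.52 there. How far the 30 genes of a choice vary together was not tested, so they are not taken as 30 separate observations. Without the 2 shallowest libraries the female-biased counts were 23 of 30 at 39 dph and 28 of 30 at 108 dph and the male-biased count at 73 dph was 5 of 30, and with group means the female-biased count at 108 dph was 27 of 30. The share of all genes in these directions is given only for the main choice. Nothing is therefore read from how these counts moved.

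Some members of a set rose and fell together from fish to fish, though most did not. Correlations were taken between the deviations of log2(RPM + 0.5) from the 6 group medians over the 24 fish, and they are given as a description, since the 2 genes of a pair are read from the same 24 libraries and share each library's depth. Over all pairs the median r was 0.05 within the sets and 0.03 between them, and 11 of 1770 pairs, all within a set, reached 0.9. Linking genes at 0.8 or more gave 5 groups that held 18 of the 60 members, so the 60 genes were not 60 separate observations.

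The male-biased group held Nfu_g_1_001628, Nfu_g_1_001634, Nfu_g_1_003639, Nfu_g_1_005336 and Nfu_g_1_018098, with r between 0.72 and 0.96. Its summed level was 46.1 to 69.1 RPM in the 39 dph males and 5.06 to 37.4 RPM in the 39 dph females, with no overlap. At 73 dph the females spanned 6.80 to 67.0 RPM and the males 9.56 to 83.9 RPM, and at 108 dph the females spanned 20.1 to 35.4 RPM and the males 7.17 to 63.1 RPM. Its sum was below 10 RPM in 4 fish, 39 dph female replicate 1, 73 dph female replicate 2, 73 dph male replicate 4 and 108 dph male replicate 4, which were 2 females and 2 males. In Nfu_g_1_001628 they had 0.284, 1.15, 0.546 and 1.13 RPM, whereas the other 20 fish had 2.35 to 13.6 RPM.

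Among the female-biased genes, Nfu_g_1_013028, Nfu_g_1_021102, Nfu_g_1_017584, Nfu_g_1_003134 and Nfu_g_1_021939 formed a group with r between 0.74 and 0.96. Their summed level at 39 dph was 41.3, 43.6, 33.7 and 44.8 RPM in females and 23.5, 10.1, 38.6 and 6.69 RPM in males. At 73 dph it was 39.5, 17.8, 40.6 and 24.6 RPM in females and 14.3, 25.5, 26.0 and 9.83 RPM in males, and at 108 dph 63.0, 93.9, 93.5 and 116 RPM in females and 65.5, 61.7, 95.5 and 6.44 RPM in males. The oldest fish were the highest of both sexes except for 108 dph male replicate 4, which had the lowest sum of all 24 fish. Of 20 neuron and myelin markers, only NEFL, with r of 0.85, was above 0.7. Over the 20 markers r ran from -0.54 to 0.85 with a median of -0.006, so the list as a whole did not follow this group.

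A second female-biased group, Nfu_g_1_009634, Nfu_g_1_005982, Nfu_g_1_007864 and Nfu_g_1_024878, moved with markers of epithelium. Its summed level was high in 4 of 8 fish of 39 dph (females at 16.7 and 15.4 RPM, males at 17.6 and 13.4 RPM), in 2 females of 73 dph (21.3 and 28.1 RPM) and in 1 female of 108 dph (40.7 RPM), and was at most 3.19 RPM in the other 17 fish. In the list for epithelium, skin and meninges, 4 genes annotated KRT32, a keratin, followed the group with r of 0.76 to 0.96, CLDN4, a tight junction protein, with 0.96, and CDH1, an adhesion protein of epithelia, with 0.75. Over all 13 genes of the list r ran from 0.35 to 0.96 with a median of 0.71, and 7 of the 13 were above 0.7. In the 7 high fish CLDN4 had 4.99 to 26.3 RPM, and in the others 0 to 2.15 RPM, at 0 in 3 of them. The list's summed level was 206 to 731 RPM in females and 222 to 1183 RPM in males at 39 dph, 290.1 to 619 against 209 to 308 RPM at 73 dph and 405 to 670 against 208 to 276 RPM at 108 dph. RBP4 alone had 140 to 429 RPM in females and 130 to 238 RPM in males. The genes annotated COL1A2 reached 370 and 459 RPM, both in males. The sum therefore does not give the level of the keratins, CLDN4 and CDH1. The part of these markers in the difference between the sexes was not tested.

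**Figure D4:**
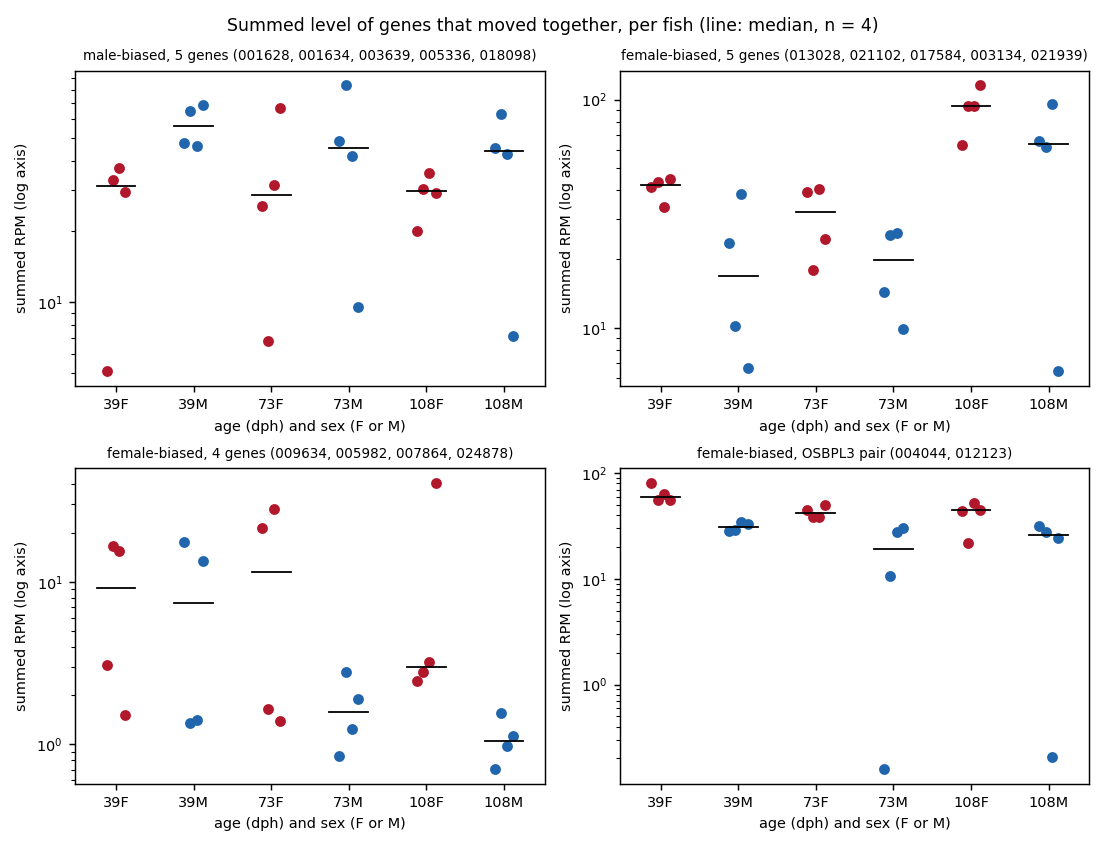
Each panel gives the summed RPM of 1 group of members that moved together, on a log axis, for every fish by age and sex (females red, males blue), with the median of 4 fish as a line. The OSBPL3 pair is at 0.158 and 0.207 RPM in 2 males, and the group of 4 genes that moved with epithelium markers is at 13.4 RPM or more in 7 fish and at most 3.19 RPM in the other 17.

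Nfu_g_1_019366 and Nfu_g_1_010825 moved together through 2 fish. Nfu_g_1_019366 had 1109.6 RPM in 39 dph female replicate 4 and 112 RPM in 39 dph male replicate 4, the 2 shallowest libraries, and 0.0589 to 3.05 RPM in the other 22 fish, and Nfu_g_1_010825 had 53.3 and 6.99 RPM in the same fish and 0.108 to 3.81 RPM elsewhere. Of 8 striated muscle markers only MYL1, with r of 0.86, was above 0.7. Over the 8 markers r ran from -0.27 to 0.86 with a median of 0.04, so the list as a whole did not follow the pair. What these 2 genes encode is not named in the sources used here. Such lone high fish occurred elsewhere too: Nfu_g_1_017871 had 148 RPM in 39 dph female replicate 4 and 123 RPM in 73 dph male replicate 3 against 0.494 to 4.34 RPM in the others.

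Age was tested over both sexes with edgeR, by an additive model of sex and age fitted to 19358 genes, with p-values adjusted over all of them and called below 0.05. All 60 members were tested. The filter on mean RPM used the fish of all ages, so a gene near 1 RPM could enter through the age at which it was high. Among the members called for age, Nfu_g_1_013028, Nfu_g_1_019366 and COL4A3 entered in this way. The counts of calls below include them, so nothing is read about the members from how these counts compare with all genes. From 39 to 108 dph, 6 female-biased members rose and 2 fell, and 2 male-biased members rose and 3 fell, which is 26.7% and 16.7% of the members called, against 38% of all genes, 19.0% that rose and 19.0% that fell. Without 108 dph female replicate 4 the calls in the female-biased set were 13 in place of 8, and DESeq2 called 9 as higher and 2 as lower. The share of all genes called is given here only for the main fit. Nothing is therefore read from how counts moved at other settings. From 39 to 73 dph, 0 female-biased members rose and 2 fell, and 1 male-biased member rose and 1 fell, against 10.4% and 10.3% of all genes. Of the female-biased members 1 was higher at 73 dph at an unadjusted p under 0.05, and DESeq2 called 1. These calls of 2 members in each set fell to 1 in the female-biased set without 39 dph male replicate 4, and to 1 in the male-biased set without any of 15 fish. Between 73 and 108 dph, 6 female-biased members rose and 0 fell, and 0 male-biased members changed in either direction, against 4.27% and 5.01%. At an unadjusted p under 0.05, 0 female-biased members were lower, by edgeR as by DESeq2, and 2 male-biased members were higher and 3 lower, and DESeq2 called 1 lower. edgeR called 1 male-biased member without 73 dph male replicate 3, 108 dph male replicate 3 or 108 dph male replicate 4. The median log2 fold change of the female-biased set was -0.06, -0.29 and 0.27 for these 3 contrasts and that of the male-biased set -0.24, -0.10 and -0.05, while over all genes it was 0.00 in each. In the same model 4 female-biased and 0 male-biased members were called for sex, against 0.0465% of all genes higher and 0.00517% lower in females, from which nothing is read since the members were chosen on that contrast.

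Of the 6 female-biased genes called higher at 108 than at 73 dph, 5 were the group of co-moving genes, Nfu_g_1_013028 included. Nfu_g_1_013028 went from 0.454 ± 0.512 RPM (SD, n = 8) at 73 dph to 2.94 ± 1.86 at 108 dph, a log2 fold change of 2.80 ± 0.71 (SE) with an edgeR adjusted p of 0.015. With a mean of 0.58 RPM at 39 dph, it passed the filter of 1 RPM only through the 108 dph fish. Nothing is therefore read from the age calls of Nfu_g_1_013028. Nfu_g_1_003134 went from a median of 16 RPM (n = 8) to 44.6 RPM, a change of 1.44 ± 0.34 with an adjusted p of 0.011, and Nfu_g_1_021102 from 6.76 ± 2.69 to 18.4 ± 9.15 RPM, a change of 1.42 ± 0.33 with an adjusted p of 0.0096. In the genes of the group other than Nfu_g_1_013028, 108 dph male replicate 4 lay below the median of the 39 dph fish. The other 7 of the oldest fish lay above it, so the rise was seen in 7 of 8 fish. Nfu_g_1_017584 and Nfu_g_1_021939 rose by 2.85 ± 0.78 and 1.95 ± 0.56 with adjusted p of 0.024 and 0.031. Since these genes moved together from fish to fish, their 5 calls are not independent. The call of Nfu_g_1_021939 was lost without any 1 of 7 fish, namely 73 dph females 2 and 4, 73 dph males 1 and 4, 108 dph female 4 and 108 dph males 1 and 3, at log2 fold changes of 1.75 to 1.88 and adjusted p of 0.052 to 0.063.

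Nfu_g_1_002846, the sixth gene of the late step, stood outside that group. It had 10.6 ± 3.44 RPM (SD, n = 8) at 39 dph, 12.5 ± 3.10 at 73 dph and 18.8 ± 6.45 at 108 dph, and rose from 39 to 108 dph by a log2 fold change of 0.81 ± 0.18 (SE, edgeR adjusted p of 0.001), a call kept without each fish in turn. Its step from 73 to 108 dph, 0.57 ± 0.18 with an adjusted p of 0.047, was called without each of 7 of the 24 fish, 39 dph female 4, 39 dph males 1, 3 and 4, 73 dph male 4, 108 dph female 1 and 108 dph male 4, and lost without any of the other 17, at 0.46 to 0.60, with 6 group means (0.57, adjusted p of 0.056) and without a filter on low counts (0.56, adjusted p of 0.053). SLC7A6 and Nfu_g_1_000916 rose from 39 to 108 dph by 0.66 ± 0.25 and 0.88 ± 0.33 with adjusted p of 0.041 and 0.037. The call of SLC7A6 was lost without any of 8 fish, 39 dph females 1, 2 and 3, 39 dph males 2 and 3, 108 dph females 1 and 3 and 108 dph male 3, at 0.50 to 0.67. That of Nfu_g_1_000916 was lost without any of 7, 39 dph females 1, 2 and 3, 39 dph males 2 and 3, 108 dph female 1 and 108 dph male 2, at 0.53 to 0.88.

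The falls of the female-biased set belonged to the pair of genes that were high in the 2 shallowest libraries. Nfu_g_1_019366 fell from 39 to 108 dph by 7.26 ± 1.47 on the log2 scale with an edgeR adjusted p of 0.00038, and Nfu_g_1_010825 fell by 2.36 ± 0.83 with an adjusted p of 0.028. Without those 2 libraries the values were -1.28 with an adjusted p of 0.058 and -0.15 with an adjusted p of 0.87, and neither was called. Without 39 dph female replicate 4 alone they were -4.20, still called, and -0.92 with an adjusted p of 0.30. Nfu_g_1_010825 was also not called without 39 dph male replicate 4 (-2.05, adjusted p of 0.078) and without 108 dph female replicate 1 (-2.21, adjusted p of 0.053). The same genes made up both falls from 39 to 73 dph, which were not called without the 2 libraries, at -1.43 and -0.59. Nfu_g_1_019366, with means of 0.747 and 0.896 RPM at 73 and 108 dph, passed the filter of 1 RPM only through the 39 dph fish. Its age calls are therefore a description only.

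In the male-biased set KLF11 fell from 66.3 ± 23.1 RPM (SD, n = 8) at 39 dph to 55.7 ± 23.8 at 73 dph and 37.3 ± 18.1 at 108 dph, by 0.85 ± 0.21 (SE) on the log2 scale from 39 to 108 dph with an edgeR adjusted p of 0.0024. COL4A3 fell from 1.72 ± 0.513 to 0.888 ± 0.264 RPM by 73 dph, by 0.96 on the log2 scale with an adjusted p of 0.0064, and stood at 0.855 ± 0.410 RPM at 108 dph, lower than at 39 dph by 1.02 ± 0.24 with an adjusted p of 0.0019. It passed the filter of 1 mean RPM only through the 39 dph fish, so nothing is read from the age calls of COL4A3. Nfu_g_1_012403 went from 6.10 ± 1.29 to 4.16 ± 1.28 RPM between 39 and 108 dph, a change of -0.58 ± 0.15 with an adjusted p of 0.0038. These 3 falls from 39 to 108 dph were called without each fish in turn. In COL4A3 all 8 of the 73 dph fish were below all 8 of the 39 dph fish, which is a description only, given that filter.

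The male-biased genes that rose were Nfu_g_1_003899 and Nfu_g_1_007581. Nfu_g_1_003899 had a higher median at each later age in both sexes: its females had 0.569, 0.603, 0.449 and 0.653 RPM at 39 dph, a median of 1.28 RPM at 73 dph and 2.22, 1.78, 1.59 and 1.73 RPM at 108 dph, with no overlap between these ages. The males had 1.02, 0.863, 0.681 and 2.20 RPM, then 2.00, 1.70, 1.88 and 0.601 RPM, then 2.04, 2.51, 2.33 and 2.65 RPM. The change from 39 to 108 dph was 1.31 ± 0.25 (SE) on the log2 scale with an edgeR adjusted p of 0.00022, called without each fish in turn, while that from 39 to 73 dph, 0.72 with an adjusted p of 0.047, was kept only without 39 dph male 4, 73 dph female 3, 73 dph male 4, 108 dph female 1 or 108 dph male 1 and lost without any of the other 19, at 0.64 to 0.73, and without a filter on low counts (0.72, adjusted p of 0.055). Nfu_g_1_007581 rose by 0.68 ± 0.25 from 39 to 108 dph with an adjusted p of 0.035, and was not called without any of 7 fish, 39 dph females 1, 2 and 3, 39 dph males 2 and 4, 108 dph female 4 and 108 dph male 1, at 0.54 to 0.66.

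**Figure D5:**
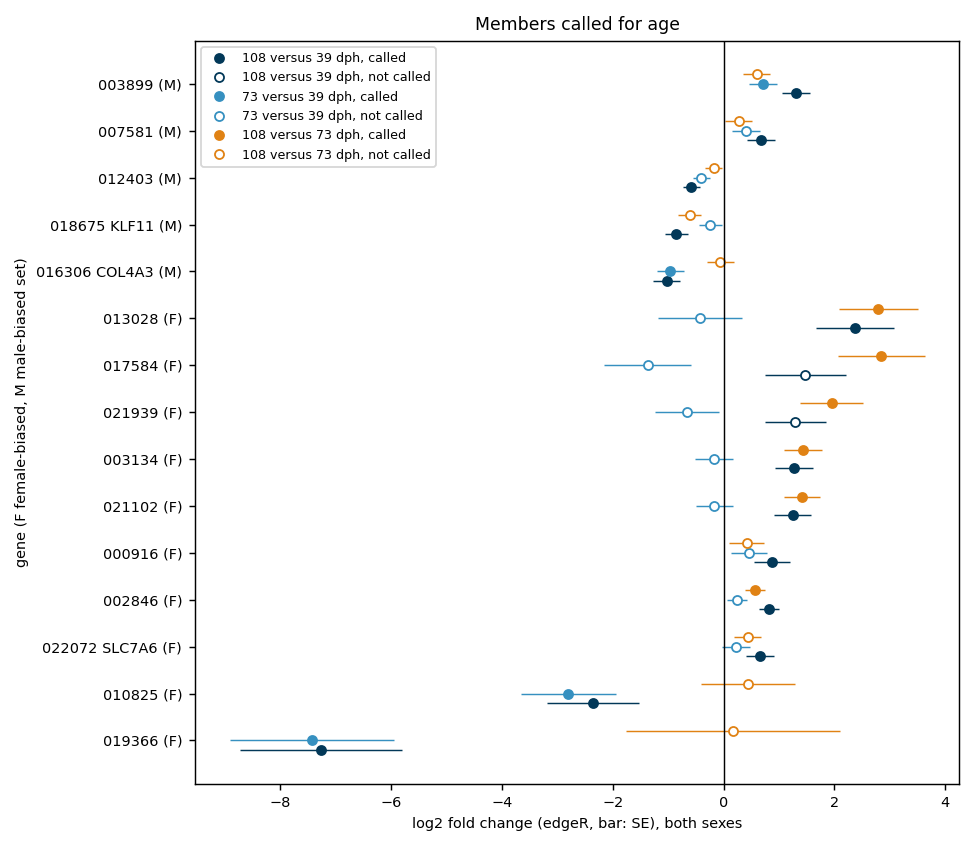
Each row is a member called in at least 1 age contrast, and the points give its log2 fold change over both sexes with the SE as a bar, filled where the edgeR adjusted p was below 0.05. In all, 6 female-biased genes rise between 73 and 108 dph, and the values of Nfu_g_1_019366 and Nfu_g_1_010825 rest on the 2 shallowest libraries of 39 dph. Nfu_g_1_013028, Nfu_g_1_019366 and COL4A3 passed the filter on mean RPM only through the age at which they were high.

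The genes around the members were read from lists, leaving the members out. Over all 19358 genes tested by edgeR, 10 were called for sex and 1444 had an unadjusted p under 0.05. With so few calls, 0 called is the likely count for any short list, and nothing is read from it. Of 15 other steroid genes measured, among them both ESR1 copies, SRD5A2, HSD17B4, POR and TSPO, 0 were called for sex and 2, POR and TSPO, had an unadjusted p under 0.05, with log2 fold changes of 0.22 and 0.31 toward females. Of 7 radial glia and astrocyte genes, namely both FABP7 genes, GFAP, VIM, S100B, SLC1A2 and NES, 0 were called and 0 had an unadjusted p under 0.05. Only 6 of the 12 symbols of that list had an identifier. The median log2 fold change of those 7 genes was -0.18, against 0.00 over all genes tested. The part of radial glia in the level of CYP19A1 was not tested.

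Cell types from outside the brain were read in the same way. Of 13 epithelium, skin and meninges genes 1, RBP4, was called higher in females (0.63, adjusted p of 0.032 by edgeR) and 6 had an unadjusted p under 0.05. The call of RBP4, a carrier of retinol, held without 39 dph female 1, 39 dph males 1 and 4, 73 dph females 2 and 4, 73 dph males 1, 2 and 3 or 108 dph female 2 and was lost without any of the other 15 fish, at 0.58 to 0.68 throughout. Of 2 oocyte genes 1 was called, ZP4, an egg coat protein that reached 29.6 RPM in 1 female and at most 0.113 RPM in males, with a median of 0.245 RPM in females (log2 fold change of 6.24, edgeR adjusted p of 0.037). Its call was lost without any of 12 fish, 39 dph female 4, 39 dph male 2, 73 dph females 1 and 2 and all 8 males of 73 and 108 dph, at adjusted p of up to 0.106. Of 8 muscle and 4 blood genes 0 were called, with 2 and 0 at an unadjusted p under 0.05, and no gene of the retina and pineal list had a symbol here. Of 20 neuron and myelin genes of the brain itself 0 were called, with 4 at an unadjusted p under 0.05, which is no check of the tissue. The part of tissues other than brain in the members' levels was not tested.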

How the data were processed

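Poly(A) RNA of 24 whole brains was sequenced as stranded, single-end reads. Per the study's methods and the submitters' processing notes, the authors demultiplexed with bcl2fastq 1.8.4, mapped with TopHat2 2.1.0 to a hard-masked genome, reporting 1 alignment for each read, and counted sense reads per gene with featureCounts 1.5.0. The deposited tables hold these read counts, RPM values (the authors' counts per 1000000 reads on genes, equal to the scaled counts within 4.91e-11) and RPKM values (the authors' RPM per kilobase). Levels and the choice of genes used RPM with a pseudocount of 0.5, comparisons between genes used RPKM, and tests used the counts.

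Age and sex were fitted to the counts with edgeR 4.0.16 in R 4.3.3 (quasi-likelihood test, additive model of sex and age, TMM scaling, filterByExpr with a minimum count of 10, Benjamini-Hochberg adjustment over 19358 genes, called below 0.05), tested on simulated data first. Sex tests of single genes are given only for genes that are no members. For members only the count called for sex is given, from which nothing is read. The members, the gene lists and the tests were chosen with earlier results of these data known. Described by name were the 10 members of each set with the most extreme limiting difference, all members with a symbol, all called for age, those at the threshold and groups of co-moving members. The lists held genes of sex steroids, hormones, radial glia, oocytes, muscle, epithelium, blood, retina and pineal, neurons and myelin, and the sex-determining region. Alternatives were other pseudocounts (0.1 and 1), group means, TMM-scaled values, minimum RPM (0.2 and 5), DESeq2 1.42.0 and its size factors, other count filters, 6 group means, a threshold of 0.01, and leaving out fish. Replicate numbers follow accession order, and p-values measure the spread between fish. Depth differs between libraries, and 1 read is 0.0617 RPM in a library of 16203440 reads. For 1 gene of the lists the result is not reported here.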

Additional observations from a re-analysis of the deposited data

Results flagged for a closer look

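Over the 20 members described in full, 120 groups of 4 fish were checked by Dixon's test. In 21 of these groups, from 11 genes, 1 fish stood far apart from the other 3. A rate of 1 in 20 would give 6, but that rate holds for independent groups with a normal spread. The members were chosen on these values, and some moved together. Where the other fish had 0 reads, 1 read was enough to stand apart. Nothing is therefore read from 21 against 6. No explanation of these fish was tested.

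In CYP19A1 (Nfu_g_1_007967) 108 dph female replicate 4 had 124 RPM against 274 to 307 RPM in the other females of that age, and 73 dph male replicate 1 had 89.5 RPM against 28.7 to 29.9 RPM. That male was also high in Nfu_g_1_015843, with 10.5 RPM against 0.0546 to 0.353 RPM. In Nfu_g_1_006237, 108 dph male replicate 4 had 0.903 RPM against 2.81 to 3.10 RPM, and 39 dph male replicate 1 had 2.41 RPM against 1.02 to 1.20 RPM.

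The genes that were on in some fish and nearly off in others gave several such fish. In Nfu_g_1_012517 they were 108 dph male replicate 1 with 11.1 RPM against at most 0.339 RPM, 39 dph male replicate 3 with 6.35 RPM against at most 0.054 RPM, and 73 dph female replicate 3 with 0 RPM against 7.74 to 13.3 RPM. In Nfu_g_1_011306 they were 73 dph female replicate 4 with 15.8 RPM and 108 dph female replicate 1 with 0.0617 RPM, which is 1 read, both against 0 RPM. In Nfu_g_1_022520, 39 dph female replicate 2 had 132 RPM against 0.284 to 1.31 RPM.

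Both OSBPL3 genes were at 0.103 RPM in 108 dph male replicate 3, against 10.6 to 12.5 RPM (Nfu_g_1_004044) and 14.0 to 19.9 RPM (Nfu_g_1_012123) in the other males, and Nfu_g_1_004044 was at 10.2 RPM in 108 dph female replicate 2 against 19.9 to 21.8 RPM. In Nfu_g_1_017244, 108 dph male replicate 1 had 3.80 RPM against 7.65 to 8.41 RPM.

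Within the male-biased group of 5 co-moving genes the same 3 fish stood apart in 2 genes. Nfu_g_1_001628 was at 0.284 RPM in 39 dph female replicate 1, 0.546 RPM in 73 dph male replicate 4 and 1.13 RPM in 108 dph male replicate 4, and Nfu_g_1_001634 at 0.0569, 0.218 and 0.565 RPM in these fish, against at least 3.37 RPM in the others of their groups.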

How the results depend on the processing

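Membership moved with single fish. Leaving out each fish in turn kept 15 to 27 of the 30 female-biased and 14 to 27 of the 30 male-biased members. Group means kept 11 male-biased members, a mean of 5 RPM or more kept 13 female-biased and 16 male-biased ones, and leaving out the 2 shallowest libraries kept 11 female-biased ones. CYP19A1, GLDN and both OSBPL3 genes were kept in all 31 alternatives, and 0 male-biased members were. Without the 2 shallowest libraries the limiting difference of Nfu_g_1_013028 was -0.28 and that of Nfu_g_1_011306 0.15, both reversed. With each fish left out it ran from -0.074 to 2.1 in Nfu_g_1_012517, from -2.46 to 0.077 in Nfu_g_1_011306 and from -2.16 to 1.96 in Nfu_g_1_022520, so each of these genes turned over with 1 fish. The cause was not tested.

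Chosen on 2 ages, without the 2 shallowest libraries 23 of 30 female-biased genes kept their direction at 39 dph, 5 of 30 male-biased at 73 dph and 28 of 30 female-biased at 108 dph, and with group means 27 of 30 female-biased at 108 dph. The share of all genes in these directions at these settings is not given here, so nothing is read from the change in the counts.

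At a threshold of 0.01 the members called with age were 5 female-biased for 108 versus 39 dph, 1 female-biased and 1 male-biased for 73 versus 39 dph, and 1 female-biased for 108 versus 73 dph. The share of all genes called at this and the following settings is not given here. Nothing is therefore read about the members from how these counts moved. For 73 versus 39 dph, 0 female-biased members were called without the 2 shallowest libraries, and 1 male-biased without a filter. For 108 versus 73 dph, 3 female-biased were called with 1 or more counts required in every library, where fewer genes are tested, and 1 male-biased by DESeq2. With each fish left out the calls ran from 6 to 13 and 4 to 7 (108 versus 39 dph, female-biased and male-biased), 1 to 3 and 1 to 3 (73 versus 39 dph), and 4 to 6 and 0 to 1 (108 versus 73 dph), and the list genes called for sex from 1 to 3. DESeq2 called 4 of these. No paired analysis was made because each library came from a different fish, and the replicate numbers only follow accession order. In libraries of 4595506 and 10019750 reads low genes rest on few reads.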
